A study of Mus musculus with 13 samples.

Results

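The genes described here encode proteins of the mitochondrial ribosome. They were taken as every row of the deposited expression table whose gene symbol starts with Mrpl or Mrps followed by a digit, which gave 76 of 11989 genes. By textbook assignment 50 of them belong to the large subunit, 25 to the small subunit, and 1, Mrps36, is now known as a subunit of the oxoglutarate dehydrogenase complex despite its symbol. The large-subunit count includes Mrps18a and Mrps30, which carry small-subunit symbols. All 76 genes passed the filter on low values. They lie on 17 chromosomes in the GENCODE M21 annotation of GRCm38.

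The libraries are bulk RNA sequencing of splenic natural killer (NK) cells, and all 13 are from C57BL/6 wild-type mice. NK cells are innate lymphocytes, IL-15 is the cytokine that maintains them, and NK1.1 is an activating receptor on their surface that an antibody can engage. Naive NK cells were not cultured with IL-15 and were either left unstimulated (n = 3, replicates 1, 4 and 6) or given anti-NK1.1 for 6 hours (n = 3, replicates 1, 4 and 5). Cells labelled HD IL-15 were cultured for 72 hours and then left unstimulated (n = 2) or given anti-NK1.1 for 6 hours (n = 3). Cells labelled LD IL-15 were cultured for 72 hours and given anti-NK1.1 for 6 hours (n = 2, replicates 1 and 3), and no unstimulated LD library was analysed here. The labels do not spell out HD and LD or give a concentration. For naive anti-NK1.1 replicates 1 and 4 the stimulation field gives only the duration, and the antibody comes from the title. No label gives the age of the mice, or says whether replicates came from separate mice or cultures, so p-values measure the spread between these libraries, which may be technical.

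The mitochondrial ribosome translates the small set of proteins encoded by the mitochondrial genome, all of them subunits of the respiratory chain and ATP synthase. Its proteins are encoded in the nucleus, made in the cytosol and imported, and are assembled there on rRNAs transcribed from mitochondrial DNA. Some have counterparts in bacterial ribosomes and others are found only in mitochondria. Of the 75 proteins assigned to a subunit here, 46 have a bacterial counterpart and 29 are specific to mitochondria. T cells and NK cells are known to enlarge their mitochondrial machinery when cytokines or receptors activate them.

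Promoter sequences of 4 members are shown as examples of patterns described below. Mrps18b and Mrps22 rose with anti-NK1.1 in both naive and HD cells, Mrpl57 differed between those responses, and Mrpl14 fell with anti-NK1.1. All 4 hold a marked match. The promoters of Mrps6, Mrps2, Mrps10 and Mrpl55, also described below, held no match to either marked motif and are not shown. The sequences are from RefSeq (GRCm38.p6) and run 5′ to 3′ along the gene's strand, from 250 bases before to 50 bases after the annotated start. Mrps18b is at chr17:35916391-35916690 on the minus strand, Mrps22 at chr9:98601630-98601929 on the minus strand, Mrpl57 at chr14:57825989-57826288 on the plus strand and Mrpl14 at chr17:45686099-45686398 on the plus strand. The genes themselves span chr17:35910379-35916389 (Mrps18b), chr9:98588730-98601660 (Mrps22), chr14:57826234-57829296 (Mrpl57) and chr17:45686322-45698495 (Mrpl14) in GRCm38. The windows of Mrps22, Mrpl57 and Mrpl14 reach into the 5′ end of these spans. The Mrps18b window lies wholly before its span, so the annotated start that placed it differs from the start of the span. Capitals mark matches, on either strand, to the ETS core CCGGAAG or to the NRF1 palindrome.
Mrps18b: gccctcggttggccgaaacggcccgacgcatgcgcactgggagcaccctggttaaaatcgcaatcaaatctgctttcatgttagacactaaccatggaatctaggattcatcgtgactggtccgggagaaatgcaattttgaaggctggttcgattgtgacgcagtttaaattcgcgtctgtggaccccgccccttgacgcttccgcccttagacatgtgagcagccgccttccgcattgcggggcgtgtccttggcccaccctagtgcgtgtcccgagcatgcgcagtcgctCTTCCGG
Mrps22: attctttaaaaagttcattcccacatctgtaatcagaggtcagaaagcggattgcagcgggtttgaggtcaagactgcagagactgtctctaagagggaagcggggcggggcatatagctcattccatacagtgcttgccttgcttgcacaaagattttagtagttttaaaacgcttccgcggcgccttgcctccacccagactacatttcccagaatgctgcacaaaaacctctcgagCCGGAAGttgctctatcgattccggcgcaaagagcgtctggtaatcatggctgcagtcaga
Mrpl57: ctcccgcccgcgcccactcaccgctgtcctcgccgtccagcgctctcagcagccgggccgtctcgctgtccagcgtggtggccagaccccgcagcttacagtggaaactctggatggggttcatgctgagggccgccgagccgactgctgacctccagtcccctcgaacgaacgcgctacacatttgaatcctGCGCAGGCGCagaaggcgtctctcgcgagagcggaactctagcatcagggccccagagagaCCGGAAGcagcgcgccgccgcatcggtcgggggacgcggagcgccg
Mrpl14: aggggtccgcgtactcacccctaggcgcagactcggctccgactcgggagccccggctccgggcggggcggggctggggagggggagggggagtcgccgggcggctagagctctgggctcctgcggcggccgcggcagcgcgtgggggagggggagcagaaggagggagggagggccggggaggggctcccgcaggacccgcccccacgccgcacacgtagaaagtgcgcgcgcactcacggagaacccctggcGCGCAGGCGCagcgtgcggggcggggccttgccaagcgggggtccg

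At least 1 promoter of 300 bases was available for 67 of the 76 members. Promoters on 1 chromosome were left out of the counts, and a gene held a motif if any of its windows did. The ETS core CCGGAAG was present on either strand in 24 of the 67 members, or 35.8%, against 21.1% of the 9246 tested genes with a counted promoter. The NRF1 palindrome, searched with 1 free base at its centre as marked in the Mrpl57 and Mrpl14 lines, was present in 13, or 19.4%, against 12%. The YY1 motif AAGATGG was also present in 13, or 19.4%, against 8.66%. The E-box CACGTG was in 5 members, or 7.46%, against 11.8% of tested genes, and the TATAAA box was in 5, against 8.56%. The composite motif TGATGNAA of ATF4 was in 0 of the 67, against 2.88%. ETS-family factors, NRF1 and YY1 are known regulators of nuclear genes for mitochondrial proteins. A match describes letters in this window and is not a site of binding.

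The deposited values are log2 of quantile-normalized counts plus 1, so every library has nearly the same distribution of values. Levels below are given as CPM, which is each gene's value after reversing the log, scaled so that all libraries have the same total. The number of reads at the median gene, read from the ranks of the distinct values, ranged from 112 to 463 per library, and the lowest member, Mrps28, rested on 2 to 33 reads per library. The NK marker genes were high in all 13 libraries, at 5734 to 17767 CPM in sum over 14 genes. Markers of some other cells differed between naive and cultured libraries. For macrophages, monocytes and dendritic cells the sum of 13 markers was 650 to 821 CPM in naive, 332 to 454 CPM in LD and 99.6 to 247 CPM in HD libraries. The globin genes were under 1 CPM in every cultured library, while the sum of 9 erythroid and platelet markers was 438 to 2181 CPM in naive and 569 to 809 CPM in cultured libraries. The sum of 5 T cell markers was 24.8 to 71.4 CPM and that of 4 B cell markers at most 14.7 CPM. These markers move with the comparisons of cultured with naive cells, and several also move with anti-NK1.1. The ratio of mean sums, anti-NK1.1 to unstimulated, was 0.477 in naive and 0.642 in HD cells for NK markers. It was 0.611 and 0.944 for T cell, and 0.203 and 0.64 for B cell markers. For macrophage, monocyte and dendritic cell markers it was 0.95 and 0.573, and for erythroid and platelet markers 2.42 and 1. The part of these markers in any of the results was not tested. In bulk libraries a change in the share of a cell type and a change of RNA per cell cannot be told apart.

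The file header places the libraries in 2 pools. All 6 naive libraries and LD replicate 3 are in one pool, and all 5 HD libraries and LD replicate 1 are in the other. Each response to anti-NK1.1 is therefore measured within 1 pool, whereas HD against naive cells compares the pools, and the 2 cannot be told apart except through the LD libraries. Some libraries of that second pool deviated from their group means in the same direction. The deviations of HD unstimulated replicate 1 correlated with those of HD anti-NK1.1 replicate 3 at r = 0.41 over 6961 genes and 0.58 over 74 members, and with those of LD replicate 1 at r = 0.36 and 0.50, given as a description. Between HD anti-NK1.1 replicate 3 and LD replicate 1 the values were r = 0.20 and 0.37. With 2 HD unstimulated libraries, the deviations of replicate 2 are those of replicate 1 with the sign turned. The 2 LD libraries, which lie in different pools, mirror each other in the same way. Which library of either pair stands apart therefore cannot be told, and the LD values cannot be assigned to a pool. For the members described, values without HD unstimulated replicate 1 or HD anti-NK1.1 replicate 3 are given beside the results they end. Genes that are not members were not read from fits without single libraries.

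Summed over the 76 genes, the mitochondrial ribosomal proteins were lowest in naive and highest in HD cells. The sums were 3817, 3689 and 3950 CPM in the naive unstimulated libraries and 3769, 3528 and 3667 CPM in the naive anti-NK1.1 libraries. They were 4669 and 5711 CPM in the LD anti-NK1.1 libraries, 5613 and 5627 CPM in the HD unstimulated libraries, and 5950, 5827 and 6349 CPM in the HD anti-NK1.1 libraries. Every cultured library was above every naive library, and the HD and LD ranges did not overlap after anti-NK1.1. The mean sum was 1.65 times as high in HD as in naive cells after anti-NK1.1 and 1.47 times as high without it. Within the naive cells the ratio of anti-NK1.1 to unstimulated was 0.957, and within the HD cells it was 1.08. The cytosolic ribosomal proteins, summed over 83 genes, had ratios of 0.979 and 1.14 for the same comparisons of HD with naive cells.

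**Figure D1:**
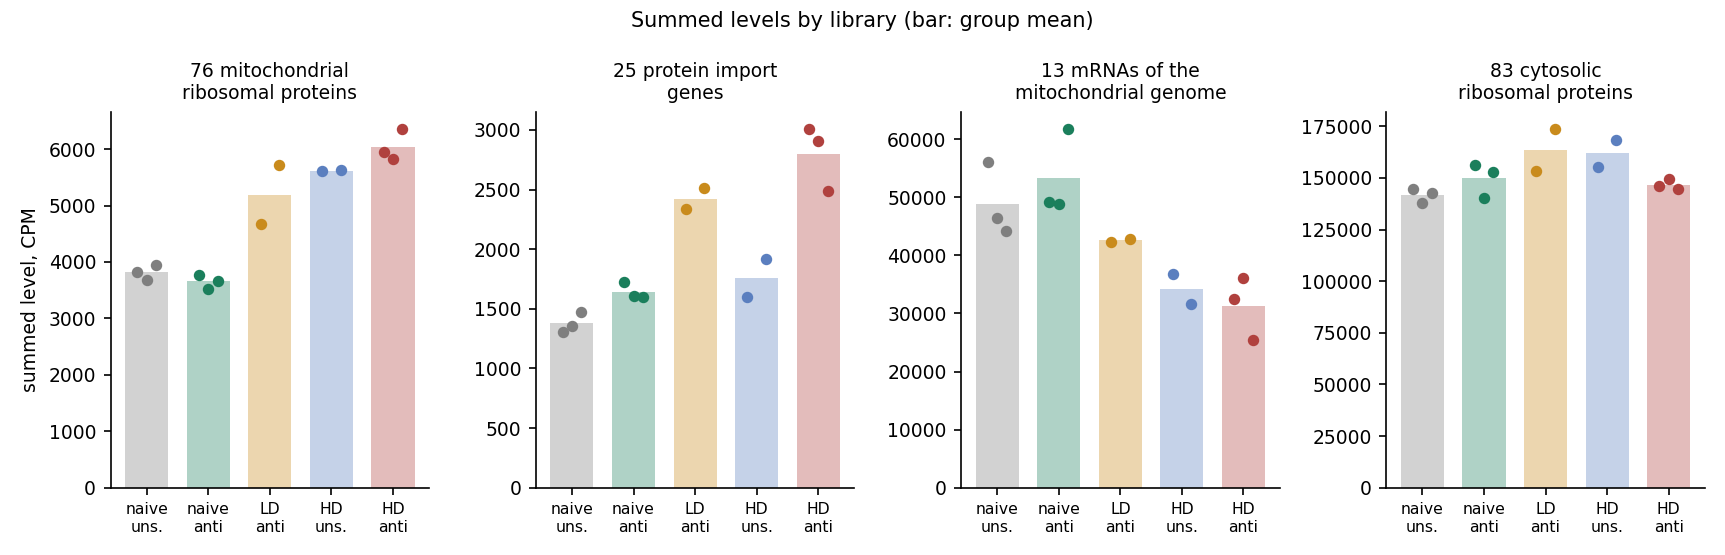
Summed level (CPM, linear axis from 0) of 4 gene groups in every library, with points for libraries and bars for group means; uns., unstimulated; anti, anti-NK1.1. The mitochondrial ribosomal proteins are above all naive libraries in every cultured library, while the 13 mRNAs of the mitochondrial genome are below them.

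Members differed widely in level. Per kilobase of exon, averaged over the 5 groups, the highest were Mrpl18 at 159 CPM per kb, Mrps21 at 157 and Mrpl52 at 119. The lowest were Mrps28 at 1.37, Mrps2 at 4.43 and Mrps10 at 4.60 CPM per kb. The median was 20.5 CPM per kb for the large-subunit genes and 16 for the small-subunit genes. The exon length counts every annotated exon, and the sources do not say whether reads covered whole transcripts, so the order is approximate. Mrps2 and Mrps10, low in level, are among the members described below for their increases. Mrps2 went from 1.82 ± 0.902 CPM per kb (SD, n = 3) in naive unstimulated to 7.52 ± 1.22 (SD, n = 3) in HD anti-NK1.1 cells.

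After anti-NK1.1, most mitochondrial ribosomal protein genes were higher in HD than in naive cells. Of the 76 members, 42 rose and 1 fell (limma, adjusted p under 0.05), against 21.1% called higher and 22.4% called lower among all 11543 tested genes. The members' median log2 difference was 0.80 and that of all tested genes 0.02, and 68 of the 76 differences were positive. Genes of both subunits rose: 24 of 50 large-subunit genes and 17 of 25 small-subunit genes rose. By origin, 22 of 46 proteins with a bacterial counterpart and 19 of 29 mitochondria-specific proteins rose.

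The 5 largest increases were in Mrps31, Mrpl35, Mrpl55, Mrpl48 and Mrps10. Mrps10, a small-subunit protein with a bacterial counterpart, was at 27.1, 16.9 and 24.2 CPM in the naive libraries and at 73.1, 66.5 and 59.2 CPM in the HD libraries. The groups were far apart, and the log2 difference was 1.56 ± 0.20 (SE, limma adjusted p = 3.81e-05). Mrpl55, a large-subunit protein, was at 23.6, 18.8 and 13.7 CPM in naive and at 63, 56.8 and 48.8 CPM in HD libraries, a log2 difference of 1.61 ± 0.22 (adjusted p = 4.69e-05). Both genes kept their call under all 23 alternative settings. Mrps31, a small-subunit protein specific to mitochondria, was at 7.64, 18.9 and 6.28 CPM against 43.1, 30.1 and 31.5 CPM (log2 difference 1.82 ± 0.44, adjusted p = 0.00398). Mrpl35, of the large subunit, was at 49.5, 42.2 and 60.3 CPM in naive libraries and at 106, 101 and 463 CPM in HD libraries. Its difference of 1.76 ± 0.50 (adjusted p = 0.0105) leaned on HD anti-NK1.1 replicate 3 and was 1.04 (adjusted p = 0.0384) without that library. Mrpl48 is a large-subunit protein specific to mitochondria, and its exons overlap Rab6a on the other strand. It had a difference of 1.56 ± 0.35 (limma adjusted p = 0.00249), and 1.29 (adjusted p = 0.014) without HD anti-NK1.1 replicate 3. Over the alternative settings the difference of Mrpl48 went down to 0.51 (limma adjusted p up to 0.659). Of these 5 genes, Mrps31, Mrpl35 and Mrpl48 lost their call with library pool as a term in the fit.

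The member that fell was Mrpl14, a core large-subunit protein with a bacterial counterpart. It was at 26.4, 27 and 25.7 CPM in naive and at 11.3, 12.6 and 12 CPM in HD libraries, a log2 difference of -1.14 ± 0.21 (adjusted p = 6.06e-04). Its exons overlap those of Tmem63b by 106 bases on the opposite strand, and the sources do not say whether counting used strand. Tmem63b itself was lower in HD cells, by -1.46 ± 0.50 (adjusted p = 0.029).

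A panel of 12 members of defined function had differences from -0.26 to 1.01 in this comparison. Mrpl12, Mrpl10 and Mrpl11 form or anchor the stalk that recruits translation factors. Their log2 differences between HD and naive cells after anti-NK1.1 were 0.68 ± 0.27 (adjusted p = 0.0568), -0.26 ± 0.24 (adjusted p = 0.401) and 0.63 ± 0.22 (adjusted p = 0.0341), of which that of Mrpl11 passed the test. That call was lost without any 1 of the 3 naive anti-NK1.1 libraries and without HD anti-NK1.1 replicate 1 or 2 (adjusted p up to 0.109), and Mrpl12 passed in 5 of the 23 alternative settings, so the stalk genes are not separated by these calls. Mrps12, at the decoding centre, rose by 0.81 ± 0.19, and Mrpl3, near the peptidyl transferase centre, rose by 0.78 ± 0.22. The Mrps18 paralogues Mrps18a, Mrps18b and Mrps18c rose by 0.93, 1.01 and 0.89. Mrps30 rose by 0.81 ± 0.22. With library pool as a term, the calls of Mrps12, Mrps18a, Mrps18c and Mrps30 were lost, and those of Mrpl3 and Mrps18b were kept. With replicate number as a term, the calls of Mrps12, Mrpl3, Mrps18b, Mrps18c and Mrps30 were lost, and that of Mrps18a was kept. Mrpl32, which an inner-membrane protease matures, differed by 0.44 ± 0.21 (adjusted p = 0.107), and Mrpl58, a peptidyl-tRNA hydrolase that rescues stalled ribosomes, by 0.14 ± 0.17 (adjusted p = 0.51). Mrps36, the oxoglutarate dehydrogenase subunit, rose by 0.88 ± 0.27 (adjusted p = 0.0186), a call lost without naive anti-NK1.1 replicate 4 (0.56, adjusted p = 0.0886) and without HD anti-NK1.1 replicate 1 or 2.

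With library pool as a term in the fit, so that only the LD libraries tie the pools, 13 members were called higher and 0 lower between HD and naive cells after anti-NK1.1, and the members' median difference was 0.98. The call of Mrpl14 was lost there. Leaving out 1 library at a time gave 33 to 45 members called higher.

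**Figure D2:**
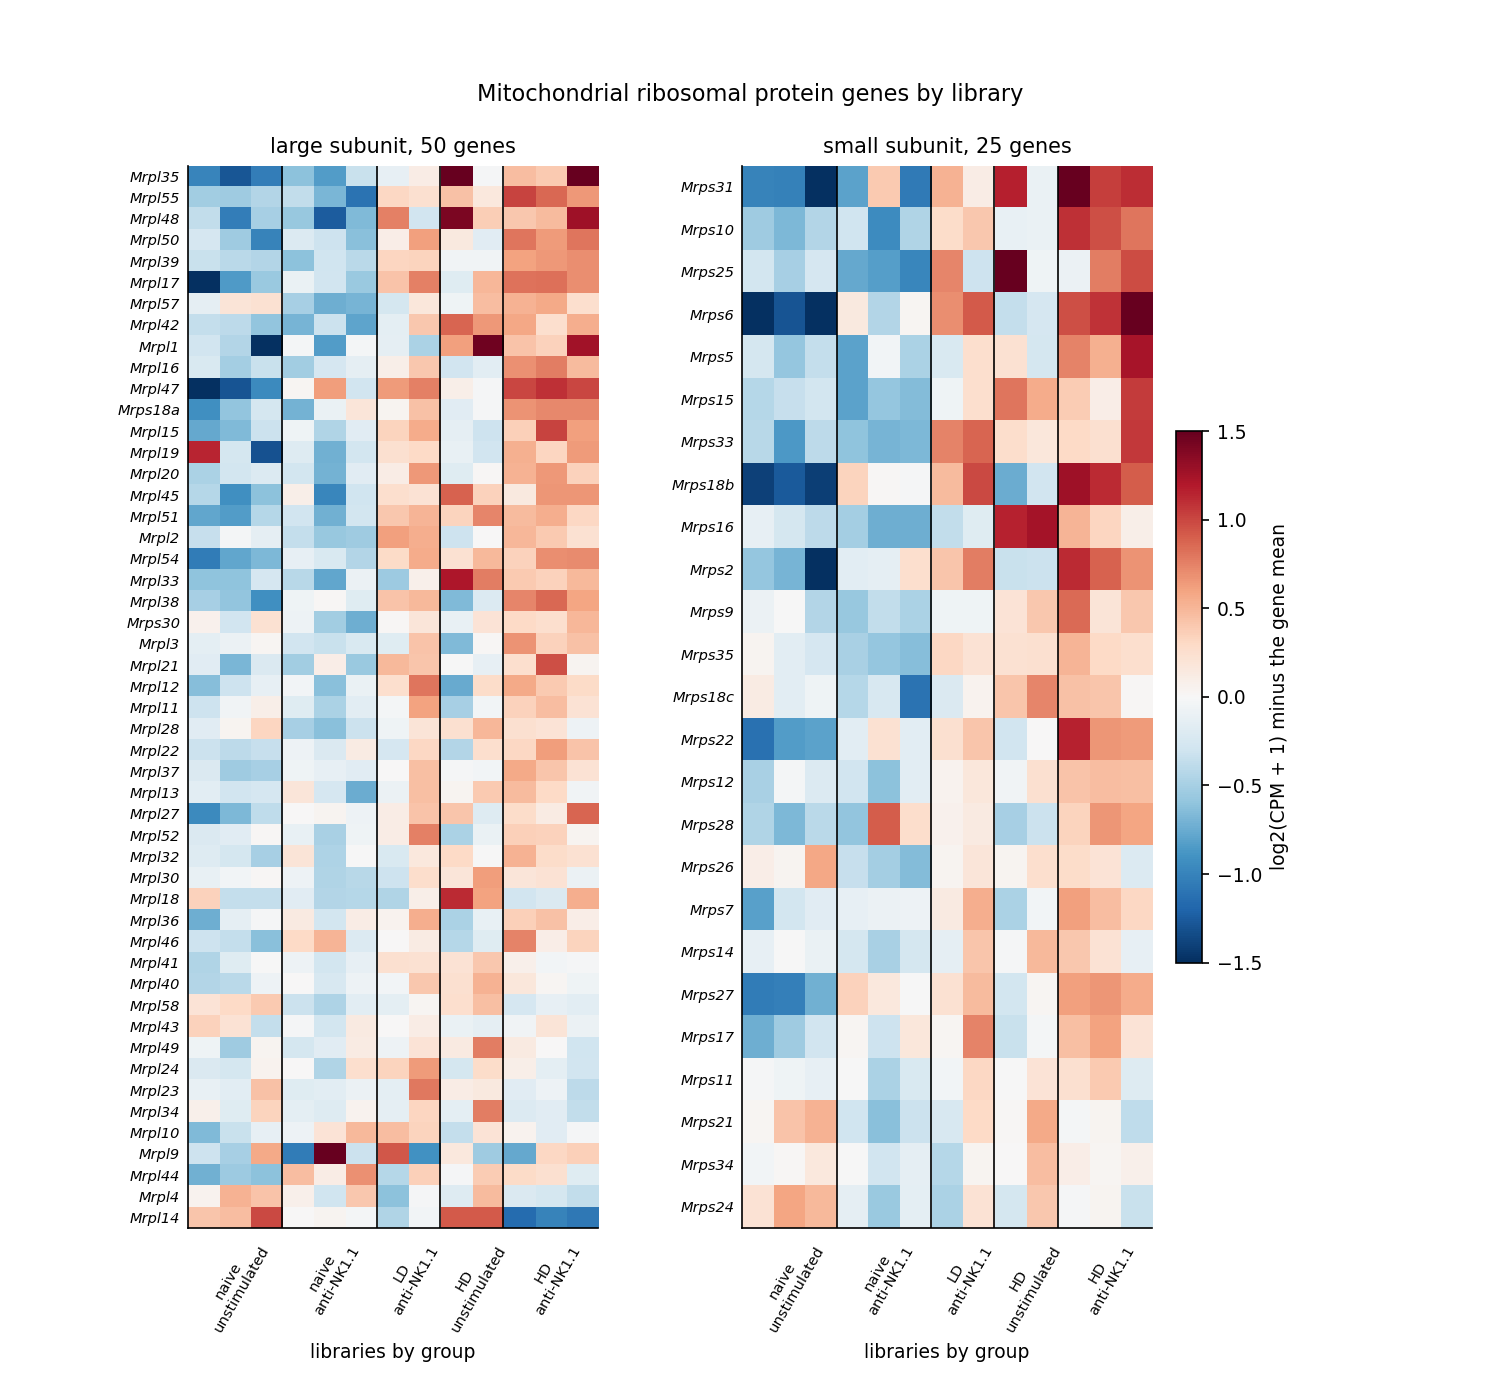
Level of each member in every library as log2(CPM + 1) minus the gene's mean over the 13 libraries, for 50 large-subunit and 25 small-subunit genes ordered by their difference between HD and naive cells after anti-NK1.1; columns are libraries by group. The HD anti-NK1.1 columns are mostly above the gene mean, and Mrpl14, in the bottom row of the large subunit, shows the opposite.

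Without anti-NK1.1, fewer members separated HD from naive cells, and those that did were all higher in HD. Of the 76 members 22 rose and 0 fell, against 16.6% called higher and 17.3% called lower among all tested genes. At an unadjusted p under 0.05, 30 were higher and 0 lower. The median difference was 0.38, against 0.02 over all tested genes. By subunit 14 of 50 large-subunit and 8 of 25 small-subunit genes rose, and by origin 10 of 46 with a bacterial counterpart and 12 of 29 specific to mitochondria.

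The 5 largest increases, in Mrps31, Mrpl1, Mrpl35, Mrpl47 and Mrpl48, rested to different degrees on single HD libraries. With library pool as a term in the fit, the calls of all 5 were lost. Mrpl35 was at 38, 30.9 and 36.8 CPM in naive libraries and at 247 and 75.6 CPM in HD replicates 1 and 2. Its log2 difference was 1.96 ± 0.55 (adjusted p = 0.014), but 1.1 (adjusted p = 0.237) without HD unstimulated replicate 1. Mrps31 was at 6.54, 6.5 and 3.05 CPM against 33 and 13.1 CPM, with a difference of 2.02 ± 0.49 (adjusted p = 0.00565), and 1.35 (adjusted p = 0.113) without that replicate. In both genes all HD libraries were above all naive libraries. Mrpl1, a large-subunit protein with a bacterial counterpart, had its higher value in the other HD library, at 31.1 and 56.3 CPM against 16.2, 14.4 and 4.74 CPM (difference 2.01 ± 0.48, adjusted p = 0.00555), and its call was lost without replicate 2 (1.58, adjusted p = 0.077). Mrpl48 lost its call without replicate 1, at 1.02 (adjusted p = 0.132). Mrpl47 was even between the HD libraries, at 30 and 27.9 CPM against 3.5, 10.9 and 14.1 CPM, and rose by 1.82 ± 0.44 (adjusted p = 0.00555). Its call was kept without any single library and was lost without both HD unstimulated replicate 1 and HD anti-NK1.1 replicate 3 (1.77, adjusted p = 0.0578).

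Further increases are given for members named after their values were seen. Mrps16, a small-subunit protein with a bacterial counterpart, was at 113, 102 and 93.4 CPM in naive and at 275 and 293 CPM in HD libraries, a log2 difference of 1.47 ± 0.19 (adjusted p = 5.1e-05). Mrpl33 was at 71.2, 71.4 and 91 CPM against 253 and 186 CPM (1.48 ± 0.25, adjusted p = 4.65e-04). Mrpl54 was at 41.1, 49.7 and 53.5 CPM against 101 and 121 CPM (1.21 ± 0.21, adjusted p = 5.34e-04). In none of these 3 genes did the groups overlap. Of the functional panel, Mrps18b rose, by 0.90 ± 0.24 (limma adjusted p = 0.0108). Its call was lost without HD unstimulated replicate 2, where the difference was 0.65, and with library pool as a term. None of the other 11 genes passed the test, with differences from -0.26 for Mrpl3 to 0.62 for Mrps18c.

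The comparisons of HD with naive cells with and without anti-NK1.1 share no library. Both compare the same pools, however, and both use the spread estimated from all groups. How often calls were shared among all tested genes was not counted, so the overlap has no background to be set against. Of the members, 16 were higher in HD cells in both, which is 72.7% of the 22 called without anti-NK1.1 and 38.1% of the 42 called with it. They include Mrpl33, Mrpl42, Mrpl51, Mrpl54, Mrps15, Mrps16, Mrps18b and Mrps33, of which Mrps15 (0.91, adjusted p = 0.0627) and Mrps33 (0.73, adjusted p = 0.126) lost the call without anti-NK1.1 when HD unstimulated replicate 1 was left out. Without HD unstimulated replicate 1 the number called higher without anti-NK1.1 was 13 in place of 22, and with pool as a term it was 5.

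**Figure D3:**
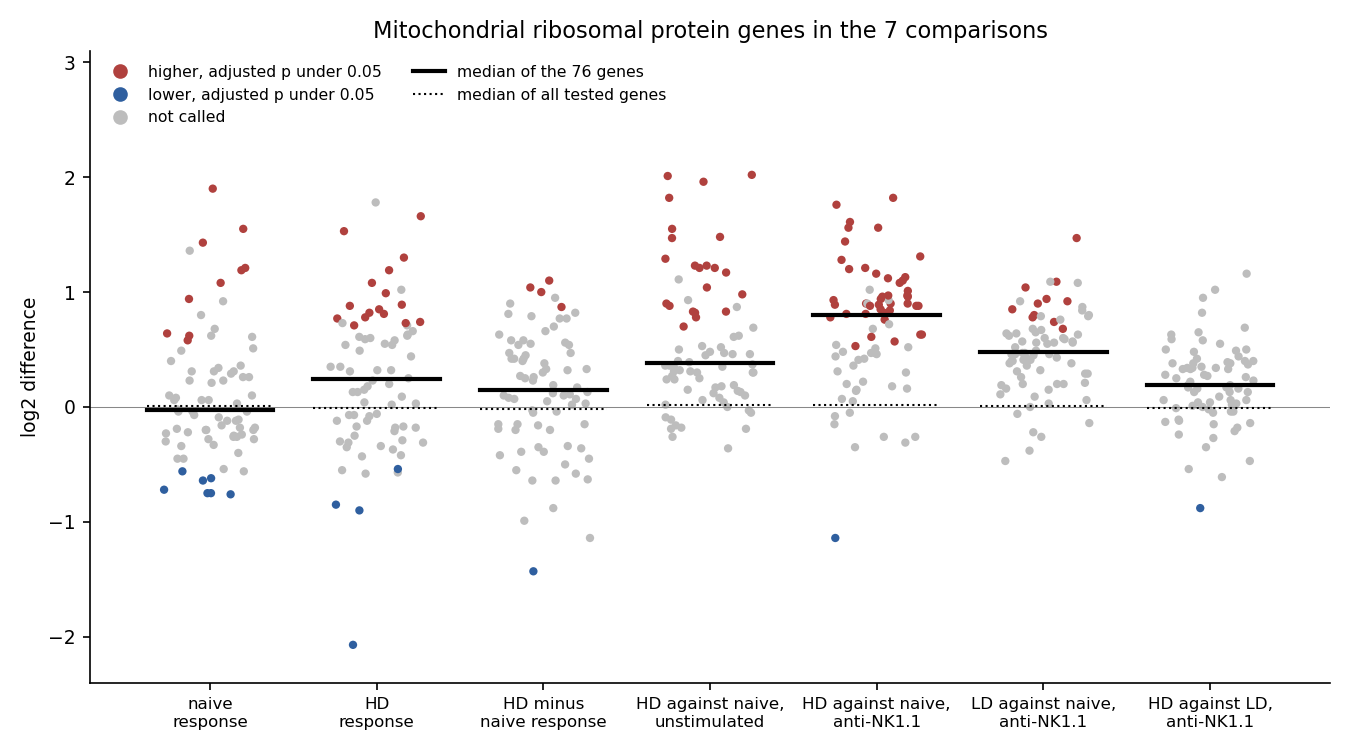
Log2 difference of each of the 76 members in the 7 comparisons (one point per gene), with the members' median as a thick line and the median of all tested genes as a dotted line. The members' median lies near 0 for the naive response and at 0.80 for HD against naive cells after anti-NK1.1.

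LD cells were also compared with naive cells after anti-NK1.1. Of the 76, 11 members rose and 0 fell, where 6.57% of all tested genes were called higher and 7% lower. At an unadjusted p under 0.05, 31 members were higher and 0 lower. The median difference was 0.48, against 0.01 over all tested genes, and 69 of 76 differences were positive. The largest was in Mrps33, a small-subunit protein specific to mitochondria, which was at 96, 90.1 and 91.7 CPM in naive and at 246 and 269 CPM in LD libraries (1.47 ± 0.25, adjusted p = 0.00156). Mrpl2, which lies near the peptidyl transferase centre, was at 27, 23.1 and 23.6 CPM against 53.7 and 51.1 CPM (1.09 ± 0.21, adjusted p = 0.00347). In both genes the LD libraries lay close together and well above the naive ones. Mrpl55, Mrps10 and Mrps6 rose by 1.04, 0.94 and 0.92. The calls of these 3 genes were lost without either LD library, and that of Mrps6 also without naive anti-NK1.1 replicate 4. None of the 12 genes of the functional panel passed the test.

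The LD libraries also give the values within a pool. LD replicate 3 against the 3 naive anti-NK1.1 libraries, all in 1 pool, left 5 members called higher and a median difference of 0.66. LD replicate 1, which is in the other pool, against the same naive libraries left 3 called higher and a median of 0.38. These fits assume that the lone LD library varies like the other groups. Without naive anti-NK1.1 replicate 1 the number called was 7.

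Between HD and LD cells after anti-NK1.1 few members differed. In this comparison 0 members were called higher and 1 lower, against 3.27% higher and 5.33% lower among all tested genes, and at an unadjusted p under 0.05 limma gave 7 higher and 2 lower. The members' median difference was 0.19, against -0.01 over all tested genes. The member that fell was Mrpl14, at 19 and 25.6 CPM in LD and 11.3, 12.6 and 12 CPM in HD libraries (-0.88 ± 0.23, adjusted p = 0.0307). The libraries did not overlap, but the call was lost without LD replicate 3 and without any 1 of the 3 HD libraries. Within the pool that holds LD replicate 1 and the HD libraries the median difference was 0.37, with 0 members called. Mrps33, the gene with the largest LD increase, was at 181, 174 and 307 CPM in HD libraries, and 2 of these 3 were below both LD libraries.

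In naive cells the response to anti-NK1.1 went both ways. Of the 76 members 10 rose and 7 fell, against 14.5% called higher and 14.7% called lower among all tested genes, so neither share was above the background. The median difference was -0.03, against 0.01. By origin 7 of 29 mitochondria-specific and 3 of 46 other subunit genes rose. The genes that rose most were Mrpl47, Mrps18b, Mrps6, Mrps2 and Mrps27.

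Mrps18b, a mitochondria-specific member of the Mrps18 family, was at 9.86, 11 and 9.75 CPM in unstimulated and at 35, 27.9 and 27.4 CPM in anti-NK1.1 libraries. The log2 difference was 1.55 ± 0.22 (adjusted p = 1.27e-04). Mrps6, a small-subunit protein with a bacterial counterpart, was at 9.65, 11.2 and 9.24 CPM against 32.2, 21 and 29.5 CPM (1.43 ± 0.22, adjusted p = 2.9e-04). In both genes the groups were far apart, and the calls held in all 23 alternative settings. Mrps6 shares exon sequence with Slc5a3, a myo-inositol transporter gene on the same strand, whose own difference was 0.88 ± 0.38 (adjusted p = 0.0976). Mrpl47 was at 3.5, 10.9 and 14.1 CPM against 28.8, 43.9 and 22.9 CPM (1.90 ± 0.39, adjusted p = 0.00244), and its exons overlap Actl6a and Ndufb5 on the other strand. Mrps27, a mitochondria-specific small-subunit protein, was at 6.71, 6.81 and 8.65 CPM against 19.2, 16.7 and 14.9 CPM (1.19 ± 0.21, adjusted p = 9.11e-04). Mrps2 rose by 1.21 ± 0.36 (adjusted p = 0.0203), a call that was lost without naive unstimulated replicate 6 and without naive anti-NK1.1 replicate 5.

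The members that fell most in naive cells were Mrps26, Mrps21, Mrpl57, Mrps24 and Mrpl14, with log2 differences between -0.76 and -0.64. Mrpl57, a large-subunit protein specific to mitochondria, was at 75.2, 94.8 and 96.8 CPM in unstimulated and at 58.3, 49.5 and 50.4 CPM in anti-NK1.1 libraries (-0.75 ± 0.20, adjusted p = 0.013). Mrpl58, the ribosome rescue factor, fell from 86.4, 92.4 and 98.5 CPM to 59.5, 54 and 66.7 CPM (-0.62 ± 0.17, adjusted p = 0.0117). The groups did not overlap in either gene, and both calls held without any single library. The calls of Mrps26, Mrps21, Mrps24 and Mrpl14 were each lost without naive unstimulated replicate 6 and without 1 or more of the other naive libraries, with adjusted p up to 0.138. The number called lower was 4 without naive unstimulated replicate 4 and 2 without replicate 6, and it was 4, 4 and 3 without naive anti-NK1.1 replicates 1, 4 and 5.

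In HD cells the response leaned upward. Of the 76 members 16 rose and 4 fell, against 15.9% called higher and 17.2% called lower among all tested genes. The median difference was 0.24, against -0.01. Of the small-subunit genes 8 of 25 rose and 1 fell, and of the large-subunit genes 8 of 50 rose and 3 fell. Mrps18b, Mrps6, Mrps2, Mrpl38 and Mrps10 rose most.

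Mrps18b was at 16.1 and 22.5 CPM in HD unstimulated and at 68, 61.4 and 52.8 CPM in HD anti-NK1.1 libraries, a log2 difference of 1.66 ± 0.24 (adjusted p = 1.36e-04). Mrps6 was at 22.4 and 24.1 CPM against 57.3, 62.4 and 85.3 CPM (1.53 ± 0.25, adjusted p = 3.18e-04). Both kept their call in all 23 alternative settings. Slc5a3, which overlaps Mrps6, rose by 3.17 ± 0.43 in HD cells (adjusted p = 7.05e-05). Mrpl38, a mitochondria-specific large-subunit protein, was at 19.5 and 27.1 CPM against 52.8, 58.1 and 47.7 CPM (1.19 ± 0.22, adjusted p = 9.41e-04). Mrps2 rose by 1.30 ± 0.40 (adjusted p = 0.0209), and its call was lost without HD unstimulated replicate 1 (1.30, adjusted p = 0.0896), HD unstimulated replicate 2 (1.31, adjusted p = 0.093) or HD anti-NK1.1 replicate 1 (1.19, adjusted p = 0.0656).

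Mrpl14 fell most. It was at 50.6 and 50.5 CPM in HD unstimulated and at 11.3, 12.6 and 12 CPM in HD anti-NK1.1 libraries, and the log2 difference was -2.07 ± 0.23 (adjusted p = 1.57e-05). The groups were widely separated, and the call held in all 23 alternative settings. Tmem63b, on the opposite strand, differed by 0.28 ± 0.56 in the same comparison (adjusted p = 0.745). Mrps16 fell from 275 and 293 CPM to 175, 154 and 131 CPM (-0.90 ± 0.19, adjusted p = 0.00274), which still left it above its level in naive cells. Mrpl18 and Mrpl58 fell by 0.85 and 0.54. Both calls rested on single libraries: each was lost without either HD unstimulated library, and without replicate 1 the differences were -0.59 (adjusted p = 0.278) for Mrpl18 and -0.64 (adjusted p = 0.06) for Mrpl58. Each was also lost without naive anti-NK1.1 replicate 1 and without HD anti-NK1.1 replicate 1 or 2, that of Mrpl18 without naive anti-NK1.1 replicate 5, and that of Mrpl58 without HD anti-NK1.1 replicate 3 (-0.55, adjusted p = 0.0645). The exons of Mrpl18 overlap Tcp1, a chaperonin subunit gene on the other strand, which differed by 0.35 ± 0.18 (adjusted p = 0.159).

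The count of members that rose in HD cells depended on single libraries. It was 7 without HD unstimulated replicate 1, 9 without HD anti-NK1.1 replicate 1, and 6 without HD unstimulated replicate 1 and HD anti-NK1.1 replicate 3 together. The number that fell was 2 without HD unstimulated replicate 2, without HD anti-NK1.1 replicate 1 or 2, and without naive anti-NK1.1 replicate 1.

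The naive and HD responses share no library, though both use the spread estimated from all groups. For these responses too, the overlap of calls among all tested genes was not counted. Of the members, 7 rose in both, namely Mrps2, Mrps6, Mrps18b, Mrps22, Mrps27, Mrpl38 and Mrpl46, which is 70% of those called in naive and 43.8% of those called in HD cells. Mrpl14 and Mrpl58 fell in both, which is 28.6% of 7 and 50% of 4. Mrps22, a mitochondria-specific small-subunit protein, was at 10.5, 12.9 and 13.3 CPM in naive unstimulated, 21.4, 28.1 and 21.3 CPM in naive anti-NK1.1, 19.5 and 24 CPM in HD unstimulated and 54.6, 38.5 and 37.9 CPM in HD anti-NK1.1 libraries. The differences were 0.94 ± 0.22 (adjusted p = 0.00558) in naive and 0.99 ± 0.25 (adjusted p = 0.00663) in HD cells. The HD call of Mrps22 was lost without HD unstimulated replicate 1 (0.84, adjusted p = 0.0654), as were those of Mrps2, Mrps27 (0.62, adjusted p = 0.151) and Mrpl46 (0.59, adjusted p = 0.216). That of Mrps27 was also lost without HD anti-NK1.1 replicate 1 or 2. The naive call of Mrpl38 was lost without naive unstimulated replicate 4 or 6 and without naive anti-NK1.1 replicate 1 or 4. Both calls of Mrpl46 were lost without most single libraries. No member was called in opposite directions.

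**Figure D4:**
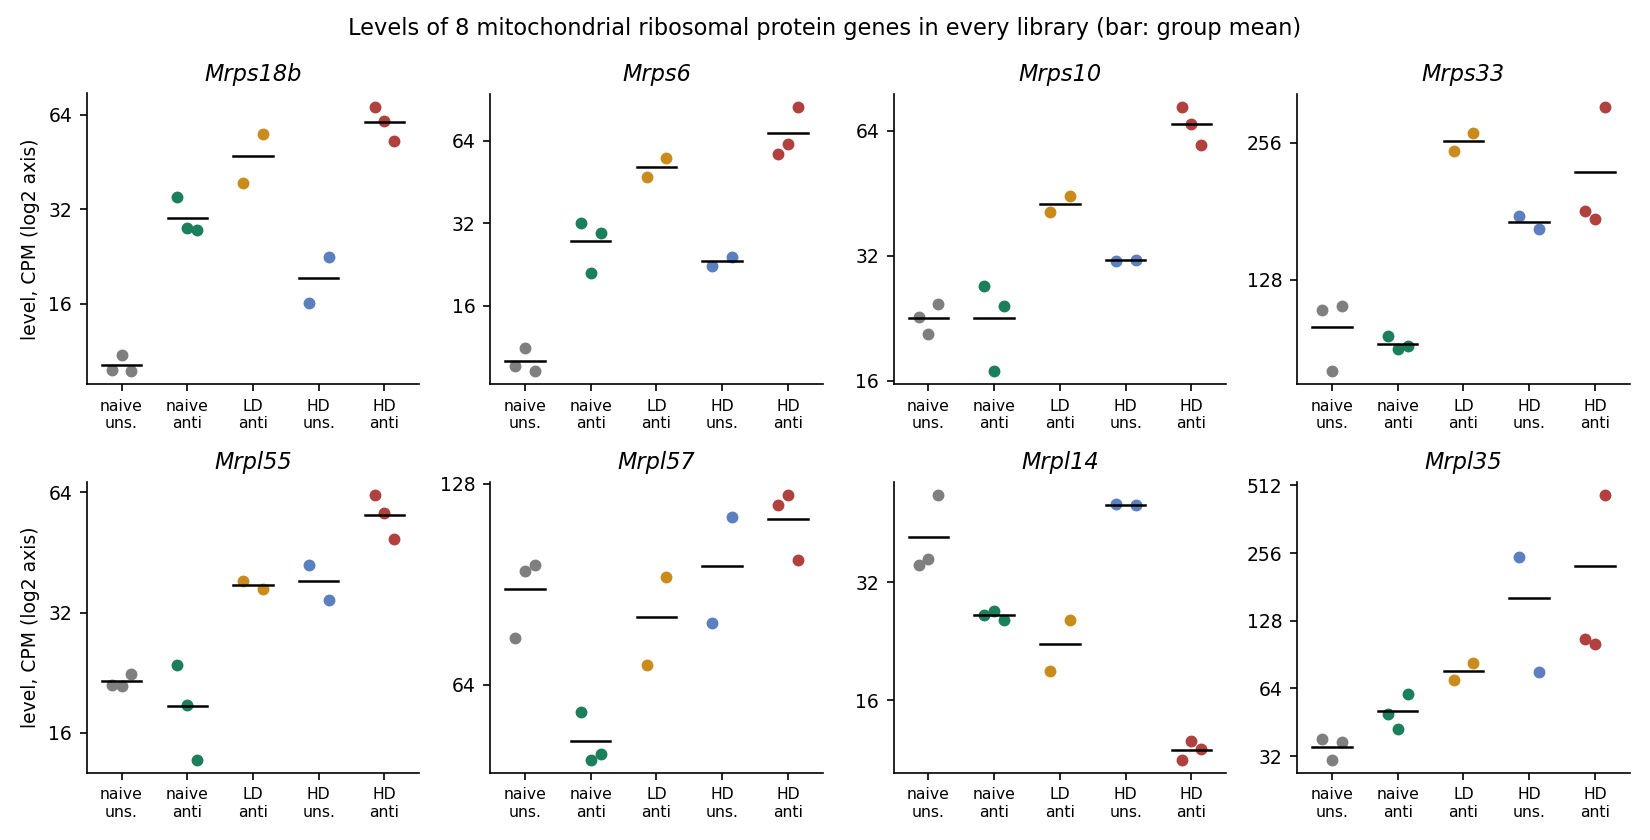
Level in CPM (log2 axis) of 8 members in every library, with points for libraries and bars for group means; uns., unstimulated; anti, anti-NK1.1. Mrps18b and Mrps6 rise with anti-NK1.1 in naive and HD cells, Mrps10 rises in HD cells alone among the called responses, and Mrpl14 falls furthest in HD cells.

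Tested directly, the HD response minus the naive response was called for 5 members, of which 4 were higher in HD cells and 1 lower. Among all tested genes 7.22% were called higher and 8.01% lower, and the members' median was 0.15, against -0.02. Mrps10 differed by 1.1 ± 0.31 (adjusted p = 0.0265): it was at 22.8, 20.7 and 24.5 CPM in naive unstimulated and 27.1, 16.9 and 24.2 CPM in naive anti-NK1.1 libraries, which overlapped. In HD libraries it went from 31.1 and 31.3 CPM to 73.1, 66.5 and 59.2 CPM. Mrpl57 fell in naive cells as given above and was at 79.1 and 114 CPM in HD unstimulated and 119, 123 and 98.5 CPM in HD anti-NK1.1 libraries, which overlapped (difference of responses 1.0 ± 0.30, adjusted p = 0.0391).

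Mrpl3 was at 39.3, 40.7 and 44.5 CPM in naive unstimulated, 35.5, 34.4 and 36.9 CPM in naive anti-NK1.1, 27.2 and 43.9 CPM in HD unstimulated and 69.7, 55.4 and 59.4 CPM in HD anti-NK1.1 libraries (difference of responses 1.04 ± 0.33, adjusted p = 0.046). Mrpl2 had a difference of responses of 0.87 ± 0.28 (adjusted p = 0.0488), and neither of its responses was itself called. Mrpl14 fell in both and fell further in HD cells, by a difference of -1.43 ± 0.31 (adjusted p = 0.00673). Its call held in all 23 alternative settings. Those of Mrps10, Mrpl57, Mrpl3 and Mrpl2 held in 16, 12, 10 and 5 of the 23 of them, and all 4 were lost without naive unstimulated replicate 6, HD unstimulated replicate 1 or HD anti-NK1.1 replicate 1 or 2. Without naive unstimulated replicate 4, or without naive anti-NK1.1 replicate 1, 4 or 5, only Mrps10 of these 4 was called. Without HD unstimulated replicate 2 the call of Mrpl57 and that of Mrpl3 remained, and without HD anti-NK1.1 replicate 3 those of Mrps10 and Mrpl57.

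**Figure D5:**
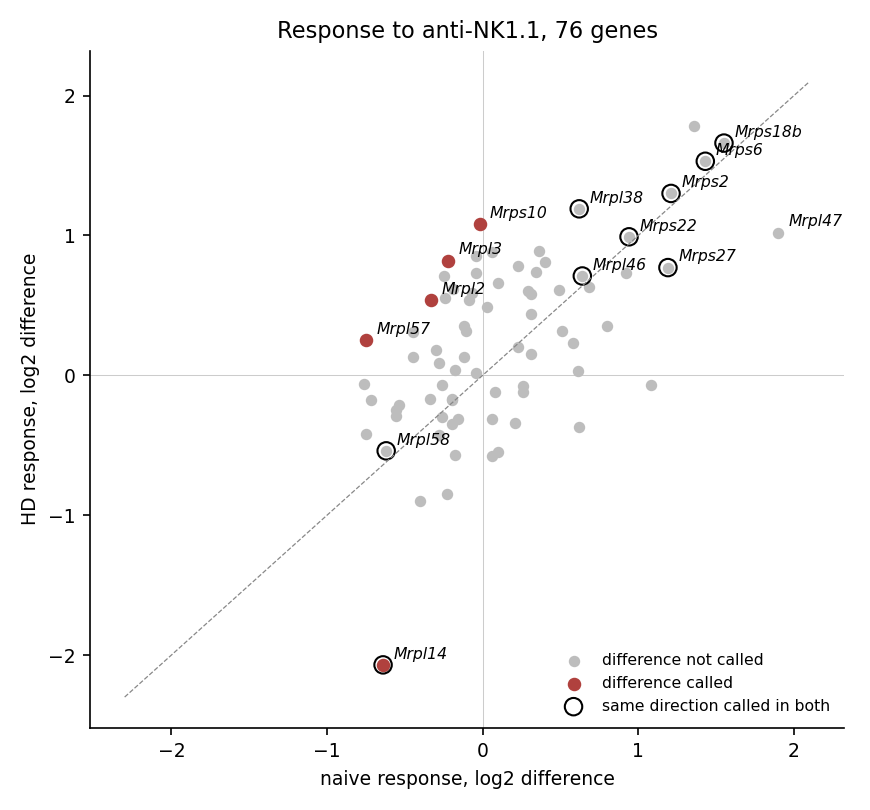
Response to anti-NK1.1 of the 76 members, as the log2 difference in naive cells (x axis) and in HD cells (y axis), with the line of equal response dashed. Mrps18b, Mrps6 and Mrps2 lie near the line, and Mrpl14 lies far below it.

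Other genes of mitochondrial gene expression were read from the main fit alone, and calls of genes that are not members were not checked under the alternatives. In that fit 21.1% of all tested genes were called higher and 22.4% lower in HD against naive cells after anti-NK1.1. Of 5 mitoribosomal proteins with other symbols, 3 rose and 1 fell in HD against naive cells after anti-NK1.1. Gadd45gip1 and Ptcd3 rose by 1.11 ± 0.26 and 0.82 ± 0.25, while Dap3, a small-subunit GTPase, fell by 0.72 (SE 0.23, adjusted p = 0.0199). Of 28 genes for mitoribosome assembly and rRNA modification 8 rose and 1 fell, with Fastkd2 at 1.89 ± 0.30, Noa1 at 2.01 ± 0.37 and the rRNA methyltransferase Mrm3 at 1.28 ± 0.25. Of 16 translation factors and activators 7 rose and 0 fell, among them the elongation factor Gfm1 at 2.12 ± 0.47 and the release factor Mtrf1 at 2.08 ± 0.31. Of 20 mitochondrial aminoacyl-tRNA synthetase genes 7 rose and 0 fell, led by the methionyl enzyme Mars2 at 2.45 ± 0.34. Of 24 genes for mitochondrial DNA replication, transcription and RNA processing 9 rose and 1 fell, led by the transcription elongation factor Tefm at 2.26 ± 0.30. The medians of these 5 groups were 0.67, 0.51, 0.77, 0.67 and 0.83.

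Protein import brings the ribosomal proteins into mitochondria. Of 25 import genes 15 rose, or 60%, and 0 fell in HD against naive cells after anti-NK1.1, against 21.1% and 22.4% of all tested genes. In the HD response 12 rose, or 48%, and 0 fell, against 15.9% and 17.2%. There Timm10 rose by 2.37 ± 0.24, Timm17a by 1.5 ± 0.22 and the outer-membrane channel Tomm40 by 1.49 ± 0.21. In the naive response 5 rose, or 20%, and 1 fell, against 14.5% and 14.7%. Timm10, Timm17a and Tomm40 also had a difference of responses, of 1.21 ± 0.32, 1.47 ± 0.29 and 0.95 ± 0.29. Among 12 regulators of mitochondrial biogenesis, 4 rose, or 33.3%, and 2 fell in HD against naive cells after anti-NK1.1, against 21.1% and 22.4%. Their median difference was -0.01, and the ratio of their mean sums was 1.06. Among the regulators that rose, Myc, a growth-promoting transcription factor, had a difference of 2.38 ± 0.22 (limma adjusted p = 1.67e-06).

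None of the mRNAs that the mitochondrial ribosome translates rose in HD cells. The 13 mRNAs of the mitochondrial genome summed to 48921 to 61685 CPM in naive and 25497 to 36043 CPM in HD anti-NK1.1 libraries, and the mean ratio was 0.589. In that comparison 0 of 13 rose and 5 fell, or 38.5%, against 21.1% called higher and 22.4% called lower among all tested genes. Among those that fell were mt-Co2 at -1.66 ± 0.23 (limma adjusted p = 7.1e-05) and mt-Cytb at -1.34 ± 0.21 (adjusted p = 1.6e-04). Without anti-NK1.1, 0 rose and 5 fell, or 38.5%, against 16.6% and 17.3% of all tested genes, and the ratio was 0.7. The nuclear respiratory chain and ATP synthase genes had 18 of 89 higher after anti-NK1.1, or 20.2%, near the 21.1% of all tested genes, and 3 lower, or 3.37% against 22.4%, with a median of 0.32. Of the cytosolic ribosomal proteins 13 of 83 rose, or 15.7%, which is below the share of all tested genes, and 3 fell, or 3.61%, with a median of 0.05.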

How the data were processed

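RNA-seq libraries of mouse splenic NK cells (13 libraries, 5 groups) were compared. Per the file headers the authors deposited 1 table of 11989 genes by 13 libraries. Its values run from 0 to 17.92 and behave as log2 of quantile-normalized counts plus 1, as read from the values; the deposited log2 unit, the counting tool and the use of strand are not given in the sources used here. Quantile normalization forces libraries to one distribution, so changes of total RNA are not visible. The submitters' processing notes name the build mm10, and per the labels' protocols the libraries were strand-specific. The members and the gene lists were chosen with earlier results of these data known.

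Of these genes 11543 were tested and 446 left out, the minimum being 10 on the back-transformed scale in 2 or more libraries. limma 3.58.1 in R 4.3.3 was fitted to the log2 values of all 13 libraries and 5 groups with variance trended on the mean, two-sided, with Benjamini-Hochberg adjustment over all tested genes and calls under 0.05, for 7 contrasts. Residual degrees of freedom were 8, with 6.3 added as prior. The fit was also run on simulated data with independent noise in each library and no shift between pools. That run does not bear on the pools or on deviations shared between libraries. CPM is the back-transformed value over the library's sum. Depth limits the lowest members, and total read numbers are unknown. Exon lengths and overlaps came from GENCODE M21 and tables were made with Python 3.11.15 and pandas 2.3.3.

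Named members are, for each comparison, the 5 called with the largest increase and the 5 with the largest decrease, a panel of 12 genes of defined function, the 3 highest and 3 lowest per length and, of each other list, up to 3 with the smallest p; others were named after their values were seen. Deviations of same-numbered replicates could not settle whether the numbers pair samples, and the main fit did not take them to. Alternatives were no filter on low values, a stricter filter (50), no trend, robust moderation, the compared groups alone, a replicate block, an offset of 8, median-ratio scaling, library pool as a factor and each library left out. Leaving out both HD unstimulated replicate 1 and HD anti-NK1.1 replicate 3 was chosen after seeing the data. Other rows of the series' genes are not described here.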

Additional observations from a re-analysis of the deposited data

Results flagged for a closer look

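The response to anti-NK1.1 differed between HD and naive cells, by a test of the difference itself (limma, adjusted over all 11543 tested genes), in 5 mitochondrial ribosomal protein genes. Of the members 5.26% were called higher and 1.32% lower, against 7.22% and 8.01% of all tested genes, so neither share was above the background. The HD response minus the naive response was 1.1 for Mrps10 (adjusted p = 0.0265), 1.04 for Mrpl3 (adjusted p = 0.046), 1.0 for Mrpl57 (adjusted p = 0.0391) and 0.87 for Mrpl2 (adjusted p = 0.0488) on the log2 scale. It was -1.43 for Mrpl14 (adjusted p = 0.00673), whose adjusted p ranged from 0.00317 to 0.0447 over the alternatives. The adjusted p ranged up to 0.127 for Mrps10, 0.258 for Mrpl3, 0.208 for Mrpl57 and 0.225 for Mrpl2, and their differences stayed positive in every alternative.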

How the results depend on the processing

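No named gene changed sign with a call in any alternative: of the values of single named genes under the alternatives, 2596 kept their side of the threshold, 177 lost and 10 gained a call, and 0 reversed. Counts of members called moved by more than 1.5 times as follows. With a replicate block, higher and lower calls were 5 and 0 in the naive response, 9 higher in the HD response, 11 higher for HD against naive unstimulated, 12 higher for HD against naive after anti-NK1.1, 0 higher for LD against naive, 1 higher and 0 lower for HD against LD, and 1 higher for the difference of responses. Same-numbered libraries of naive replicates 1 and 4 and HD replicates 1 and 2 deviated from their groups with r = 0.03, -0.18, -0.36 and 0.16. These few values cannot tell whether the numbers pair samples, because the deviations of the HD unstimulated libraries mirror each other. Whether the block fits the design is therefore not known. With pool as a factor, 5 were higher for HD against naive unstimulated, 13 higher and 0 lower after anti-NK1.1, 5 higher for LD against naive and 0 lower for HD against LD. With only the compared groups, 2 were lower in the HD response, 3 higher for LD against naive and 0 lower for HD against LD. With HD unstimulated replicate 1 and HD anti-NK1.1 replicate 3 both left out, 6 were higher in the HD response, 0 lower for HD against LD and 0 higher for the difference of responses, which had 1 higher without the trend. Lower calls of the difference were 2, Mrpl44 being added, with the stricter filter, robust moderation, an offset of 8, median-ratio scaling, pool as a factor and the compared groups. Leaving out single libraries gave 7 to 10 higher and 2 to 7 lower in the naive response, 7 to 18 higher and 2 to 4 lower in the HD response, 13 to 23 higher for HD against naive unstimulated, 3 to 13 higher for LD against naive, 0 to 2 lower for HD against LD, and 0 to 3 higher and 1 to 2 lower for the difference. The cause of these moves was not tested, except that fits with fewer libraries or more terms have fewer degrees of freedom.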
